A study of Homo sapiens with 4 samples.

Results

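The hepatocyte transcription factor network is described here by 8 genes, HNF4A, NR5A2, PROX1, FOXA1, FOXA2, FOXA3, ONECUT1 and ONECUT2, chosen by symbol from the 42169 genes of a count table. Each of the 8 had a row in the table, and each passed the filter on low counts that left 13359 genes for testing. RNA was sequenced from Huh7, a hepatoma line of human origin. The compared clones are the TTP and Brf1 double knockout (DKO, clone 18) and the control (clone 1). Each clone gave 2 libraries. All cells, controls included, had received DMSO for 3 h and then 5 µg/ml actinomycin D, an inhibitor of transcription, for 10 min. TTP (gene ZFP36) and Brf1 (gene ZFP36L1) are proteins that bind AU-rich elements in 3′ untranslated regions and promote decay of the mRNA.

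Each genotype was 1 clone, so genotype and clone cannot be told apart. Whether a clone's libraries are separate cultures is not stated, so p-values measure only the spread between libraries, which may be technical. Gene counts summed to 10271428 and 16430228 in the DKO libraries and 9685798 and 12507263 in the control libraries. ZFP36 mRNA was at 37.5 and 36.2 CPM, that is per 1e+06 gene counts, in DKO and at 30.0 and 23.3 CPM in control, and ZFP36L1 mRNA was at 147 and 118 CPM in DKO and at 135 and 109 CPM in control. Neither mRNA was lower in DKO, and since no source used here gives the kind of mutation, mRNA levels do not check the genotype labels. The mitochondrial share of gene counts was 3.59% and 1.16% in DKO and 2.53% and 0.448% in control, with the lower share in replicate 2 of both clones. Of 15 hepatocyte marker genes all were tested, and their summed level was 27371 and 24721 CPM in DKO and 22343 and 21163 CPM in control. AHSG, HP, APOH and TTR among them rose and none fell (median log2 fold change 0.42), where 2.24% of all tested genes rose. With ERCC totals 1 of the 15 rose, where 0.165% of all tested genes did. The marker median was then -0.30, beside -0.68 for all genes. Fewer of the 15 rose without DKO replicate 1, DKO replicate 2 or control replicate 2. In each of these fits fewer of all tested genes rose too.

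Hepatocyte identity is held by a small set of transcription factors that bind the promoters of each other as well as those of liver genes. HNF4A is a nuclear receptor that activates genes for lipoproteins, clotting factors and metabolic enzymes. NR5A2 (LRH-1) is a nuclear receptor of bile acid and cholesterol genes, and PROX1 is a homeodomain protein that acts as a corepressor of both. The FOXA proteins are forkhead pioneer factors that open compacted chromatin, and the ONECUT proteins (HNF-6 and OC-2) carry a cut domain and a homeodomain and act in liver and bile duct development.

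In length-corrected units the 8 genes spanned less than 10-fold, and PROX1 and HNF4A were the most abundant in both clones. The unit is TPM, a level per transcript length from counts divided by the union of annotated exons, which understates genes that use short isoforms. In DKO, PROX1 averaged 188 ± 49.9 TPM and HNF4A 165 ± 6.02 TPM (SD, n = 2 for all levels). They were followed by FOXA2 (118 ± 2.29 TPM), FOXA3 (110 ± 19.5 TPM), FOXA1 (54.7 ± 10.6 TPM), ONECUT2 (45.6 ± 11.2 TPM), ONECUT1 (31.8 ± 9.05 TPM) and NR5A2 (26.7 ± 4.0 TPM). In DKO, the libraries of neighbours in this order overlapped except between HNF4A and FOXA2 and between FOXA3 and FOXA1. In control, HNF4A averaged 243 ± 14.3 TPM and PROX1 161 ± 55.6 TPM. FOXA3 (127 ± 9.75 TPM), FOXA2 (112 ± 2.39 TPM), FOXA1 (67.5 ± 9.27 TPM), ONECUT2 (49.7 ± 14.8 TPM), ONECUT1 (48.2 ± 11.0 TPM) and NR5A2 (39.6 ± 11.9 TPM) followed in control, where the overlapping neighbours were PROX1 with FOXA3, ONECUT2 with ONECUT1, and ONECUT1 with NR5A2. Averaged over the 4 libraries, HNF4A stood above 95.5% and NR5A2 above 70.3% of the 15863 genes with a length and a count in every library.

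**Figure D1:**
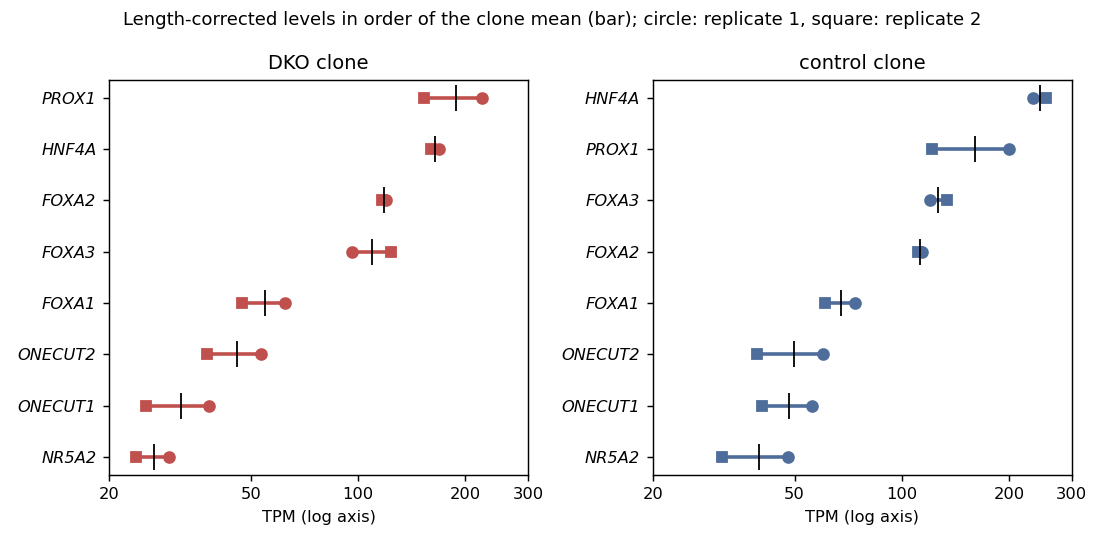
Length-corrected level (TPM, log axis) of the 8 genes in the DKO clone (left) and the control clone (right), in order of the mean of the clone. Circles and squares are replicates 1 and 2, and short bars are means; PROX1 averaged 188 TPM in DKO and 161 TPM in control, HNF4A 165 TPM in DKO and 243 TPM in control.

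The DKO clone was compared with the control clone to ask which mRNAs differ when TTP and Brf1 are missing, and none of the 8 genes passed the test. The test was edgeR's quasi-likelihood test over all 13359 genes, and a gene passed at a Benjamini-Hochberg adjusted p under 0.05. It called 5.37% of genes (2.24% higher and 3.14% lower in DKO), so 0 of 8 is close to that background. At an unadjusted p under 0.05, 3 of the 8 were lower in DKO (HNF4A, ONECUT1 and NR5A2) and 0 higher, where 10.6% of all genes were lower and 9.57% higher. DESeq2 and limma-voom also called 0 of the 8, with 4.65% and 5.25% of all genes called. The added ERCC spike-in RNA was 1.62% and 2.10% of all counts in DKO and 1.47% and 0.946% in control. Its share thus varied within each clone. Library sizes taken from ERCC totals put all 8 log2 fold changes below 0 and the median gene at -0.68. The SE was larger with them, for HNF4A 0.55 against 0.20. Again 0 of the 8 passed, where 2.46% of all genes did. HNF4A was then at -1.18, ONECUT1 at -1.12, NR5A2 at -1.09, FOXA1 at -0.86 and FOXA3 at -0.85, all below the median gene. ONECUT2 at -0.63, FOXA2 at -0.52 and PROX1 at -0.27 were above the median gene. The median log2 fold change of the 8 was -0.17, with 6 below 0, and the median of all genes tested was 0.0015, with 49.9% below 0. In this bulk RNA, fewer cells expressing a gene and less RNA per cell cannot be told apart. The rule that names the genes of most similar pattern applied only to a member past the threshold, so no such gene is named.

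**Figure D2:**
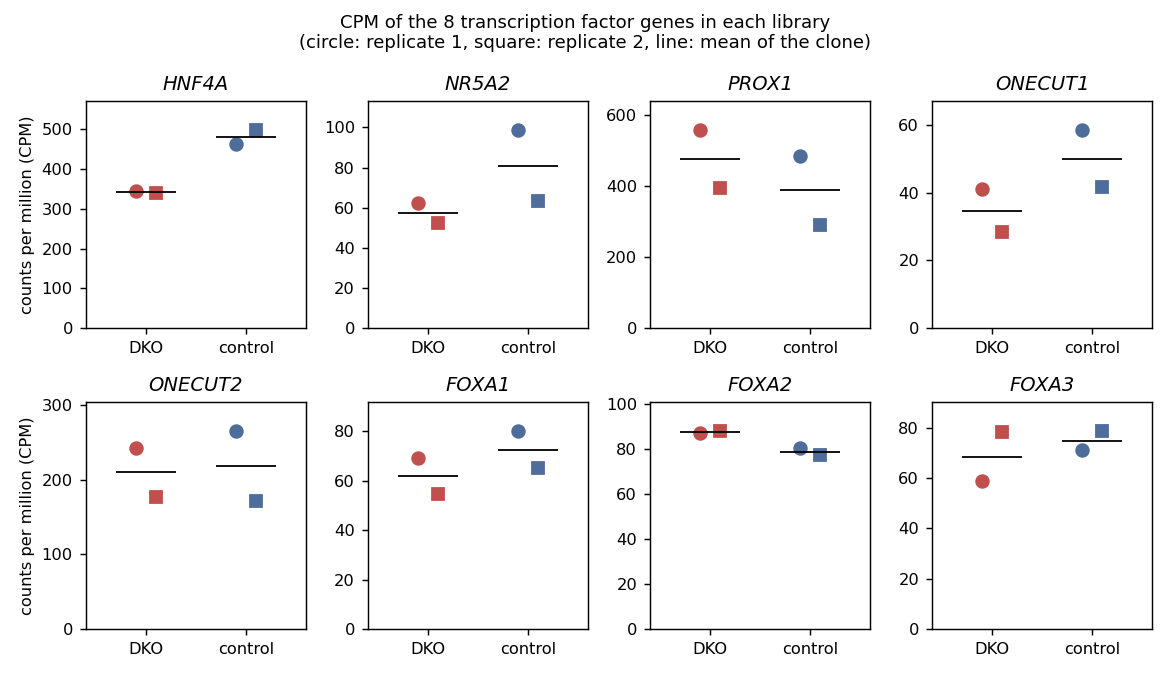
CPM of each of the 8 genes in the DKO libraries (left, red) and control libraries (right, blue), each panel with its own linear axis from 0. Circles are replicate 1, squares replicate 2 and lines means; HNF4A, NR5A2 and ONECUT1 have both DKO libraries below both control libraries, FOXA2 has both above, and the other 4 overlap.

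HNF4A, the nuclear receptor at the centre of the network, had 345 and 340 CPM in DKO and 463 and 497 CPM in control. Both DKO libraries lay below both control libraries, and the libraries of each clone lay close together. The log2 fold change was -0.48 (SE 0.20), with a 95% interval from -0.90 to -0.06, or 0.536- to 0.959-fold, and it did not pass (edgeR adjusted p = 0.181). It ran from -0.56 without control replicate 1 to -0.40 without control replicate 2. HNF4A (ENSG00000101076) lies on the plus strand of chromosome 20 from 44355700 to 44434596 (hg38), and its 50 nearest tested neighbours had a median log2 fold change of 0.06. HNF4A-AS1, an antisense gene that crosses the HNF4A locus without sharing exon bases, had 0.487 and 0.243 CPM in DKO and 0.310 and 0.400 CPM in control.

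HNF4A is transcribed from a pair of promoters, P2 upstream and P1 downstream, of which P1 is the main one in adult liver. The counts are per gene and do not separate their transcripts. Both are shown because letters that the ONECUT proteins are known to prefer can be read in them. The choice was made knowing that ONECUT1 and HNF4A are among the 3 members with the lowest log2 fold changes. Neither gene passed, and a link between them was not tested. The sequences are the 250 bases before each start in RefSeq (GRCh38), plus strand, 5′ to 3′, with matches in capitals. P2 lies at chr20:44355449-44355698 and P1 at chr20:44400989-44401238.
HNF4A P2: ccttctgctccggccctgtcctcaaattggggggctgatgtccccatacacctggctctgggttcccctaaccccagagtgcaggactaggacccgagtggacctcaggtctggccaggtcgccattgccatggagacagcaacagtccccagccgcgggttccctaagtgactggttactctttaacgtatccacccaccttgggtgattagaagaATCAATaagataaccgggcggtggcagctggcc
HNF4A P1: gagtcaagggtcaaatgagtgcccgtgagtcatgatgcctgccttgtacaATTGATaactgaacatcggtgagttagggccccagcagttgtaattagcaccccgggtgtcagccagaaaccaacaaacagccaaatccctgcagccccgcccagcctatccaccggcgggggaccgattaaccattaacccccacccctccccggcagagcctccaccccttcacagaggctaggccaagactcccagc
The capitals in P2 mark ATCAAT, the reverse complement of the ONECUT core ATTGAT, starting 33 bases before the start site. In P1 they mark ATTGAT, 200 bases before the start. On either strand ATTGAT is in 5.58% of 35116 promoter windows of the same length. The FOXA letters TGTTTAC are in 2.98% of the windows and TGTTTGC in 3.23%, the NR5A2 letters CAAGGTCA in 1.14% and the HNF4A letters CAAAGTCCA in 0.325%. A match is a description of letters, not a site of binding.

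NR5A2, the bile acid and cholesterol regulator, had 62.3 and 52.3 CPM in DKO and 98.5 and 63.3 CPM in control. All 4 values stood apart by clone, though the higher DKO library and the lower control library were nearly level. The log2 fold change of -0.48 (SE 0.22, 95% interval -0.95 to -0.02) did not pass (edgeR adjusted p = 0.229). Control replicate 1 carried much of it. Without that library the value was -0.17 (edgeR adjusted p = 0.659), and without control replicate 2 it was -0.75 and passed (edgeR adjusted p = 0.0188). NR5A2 (ENSG00000116833) lies on chromosome 1 from 200027602 to 200177424, with a median of 0.19 over 50 neighbours. LINC00862, a non-coding gene next to it, had 2.53 and 1.64 CPM in DKO and 0.826 and 0.640 CPM in control, on 26, 27, 8 and 8 counts (log2 fold change 1.49, edgeR adjusted p = 0.0797). LINC00862 passed when control replicate 1 was left out (1.63, edgeR adjusted p = 0.0442) and when no filter on low counts was used (1.50, edgeR adjusted p = 0.0307).

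NR5A2 also has a pair of RefSeq promoters, and the downstream one, at chr1:200042341-200042590 on the plus strand, is shown because it holds letters of the FOXA proteins. The 250 bases before the start carry in capitals GTAAACA, the reverse complement of TGTTTAC.
NR5A2 downstream promoter: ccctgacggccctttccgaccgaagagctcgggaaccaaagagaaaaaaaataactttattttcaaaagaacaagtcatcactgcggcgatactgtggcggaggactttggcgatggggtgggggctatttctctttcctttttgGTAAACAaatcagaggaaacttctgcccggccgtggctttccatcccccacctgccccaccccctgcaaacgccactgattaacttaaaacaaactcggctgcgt
The capitals start 105 bases before the start site. The upstream NR5A2 window held none of the 5 letter strings. Among the single windows of FOXA1, FOXA3, ONECUT1 and ONECUT2 the only match was GCAAACA, 235 bases before the FOXA1 start. GCAAACA is the reverse complement of TGTTTGC. In all, 6 of the 8 genes were matched to this RefSeq table.

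PROX1, the corepressor of HNF4A and NR5A2, had 556 and 395 CPM in DKO and 484 and 291 CPM in control. The lower DKO library lay between the control libraries, so the clones overlapped. Its log2 fold change was 0.31 (SE 0.24, 95% interval -0.21 to 0.83, edgeR adjusted p = 0.515), and its size depended on which library of either clone was left out. It was 0.69 without control replicate 1 (edgeR adjusted p = 0.0537) and 0.0049 without control replicate 2 (edgeR adjusted p = 0.996), and leaving out DKO replicate 1 gave 0.064 and DKO replicate 2 gave 0.52. With ERCC totals it was -0.27, above the median gene. PROX1 (ENSG00000117707) lies on chromosome 1 from 213983181 to 214041502, and PROX1-AS1, which shares 171 exon bases with it on the other strand, had 4.09 and 3.47 CPM in DKO and 5.37 and 3.44 CPM in control. Its value of -0.20 was 0.10 without control replicate 1. The strand setting of the counting is not given, but even all reads of PROX1-AS1 would be few beside those of PROX1.

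Ratios between members within a library were computed for 7 pairs, and 4 did not overlap between the clones. The pairs reuse members, and the share over other gene pairs was not computed, so this count is a description only. Of single genes, 49.9% of all tested did not overlap. The ratio of PROX1 to HNF4A in TPM was 1.32 and 0.952 in DKO and 0.857 and 0.478 in control, and that of PROX1 to NR5A2 was 7.56 and 6.39 in DKO and 4.16 and 3.88 in control. Both ratios were higher in both DKO libraries. The ratio of FOXA1 to FOXA2 was 0.518 and 0.404 in DKO and 0.650 and 0.551 in control, lower in both DKO libraries. The other that did not overlap was that of ONECUT2 to ONECUT1. The ratio of NR5A2 to HNF4A was 0.175 and 0.149 in DKO and 0.206 and 0.123 in control, that of FOXA3 to FOXA2 0.799 and 1.06 in DKO and 1.05 and 1.21 in control, and that of FOXA1 to FOXA3 0.648 and 0.383 in DKO and 0.618 and 0.456 in control. These 3 overlapped. The ratios are free of library scaling but carry no test. The exact 2-sided permutation p of 2 libraries against 2 cannot go below 0.333.

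ONECUT1, which encodes HNF-6, had 41.1 and 28.4 CPM in DKO and 58.4 and 41.8 CPM in control. The higher DKO library lay just under the lower control library, at a log2 fold change of -0.52 (SE 0.23, 95% interval -1.0 to -0.04) that did not pass (edgeR adjusted p = 0.210). Leaving out control replicate 2 made it pass (-0.73, edgeR adjusted p = 0.0297), so that with NR5A2 2 of the 8 passed in that fit, where 5.46% of all genes did. ONECUT1 was at -0.79 without DKO replicate 1, -0.30 without control replicate 1 and -0.29 without DKO replicate 2. ONECUT2, its paralogue, had 243 and 177 CPM in DKO and 265 and 171 CPM in control. The clones overlapped fully, and the value was -0.04 (SE 0.23, 95% interval -0.52 to 0.44, edgeR adjusted p = 0.947), turning to 0.27 when control replicate 1 was left out and to 0.15 when DKO replicate 2 was. The ratio of ONECUT2 to ONECUT1 in TPM was 1.40 and 1.48 in DKO and 1.07 and 0.969 in control. It varied little within a clone and did not overlap between them, and like the ratios of PROX1 it is untested. ONECUT1 (ENSG00000169856) lies on chromosome 15 from 52756989 to 52791078 on the minus strand, and ONECUT2 (ENSG00000119547) on chromosome 18 from 57435685 to 57491297, with neighbour medians of 0.11 and 0.10.

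None of the 3 FOXA genes passed, and the clones overlapped for FOXA1 and FOXA3. FOXA1 had 69.1 and 54.5 CPM in DKO and 80.0 and 65.2 CPM in control, overlapping, with a log2 fold change of -0.22 (SE 0.20, 95% interval -0.65 to 0.20, edgeR adjusted p = 0.581). FOXA1 was at -0.38 without DKO replicate 1 and at -0.08 without DKO replicate 2. FOXA2 had 87.2 and 88.1 CPM in DKO and 80.5 and 77.3 CPM in control. Its libraries did not overlap, and its value was 0.16 (SE 0.19, 95% interval -0.24 to 0.56, edgeR adjusted p = 0.686), from 0.13 to 0.19 when any 1 library was left out, but -0.52 with ERCC totals. FOXA3 had 58.7 and 78.4 CPM in DKO and 71.2 and 78.6 CPM in control. Only its DKO replicate 1 stood low, and its value of -0.11 (SE 0.21, 95% interval -0.56 to 0.33, edgeR adjusted p = 0.816) was 0.092 without that library and -0.36 without DKO replicate 2. None of the 3 intervals reached a 2-fold change in either direction.

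FOXA1 (ENSG00000129514) lies on chromosome 14 from 37589984 to 37596059, FOXA2 (ENSG00000125798) on chromosome 20 from 22581005 to 22585455, both on the minus strand, and FOXA3 (ENSG00000170608) on chromosome 19 from 45863989 to 45873797. Their neighbour medians were 0.06, -0.03 and -0.10. LINC00261, a non-coding gene beside FOXA2, had 0.876 and 1.16 CPM in DKO and 1.55 and 2.48 CPM in control, a log2 fold change of -0.96 that did not pass (edgeR adjusted p = 0.237) and rests on 9 to 31 counts per library. It was -0.53 without control replicate 2. TTC6, which shares 16 exon bases with FOXA1 on the other strand, had 13.6 and 11.2 CPM in DKO and 12 and 9.51 CPM in control. FOXA2 shares 70 exon bases with an unnamed protein-coding model on its own strand, and reads there may be lost or shared.

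**Figure D3:**
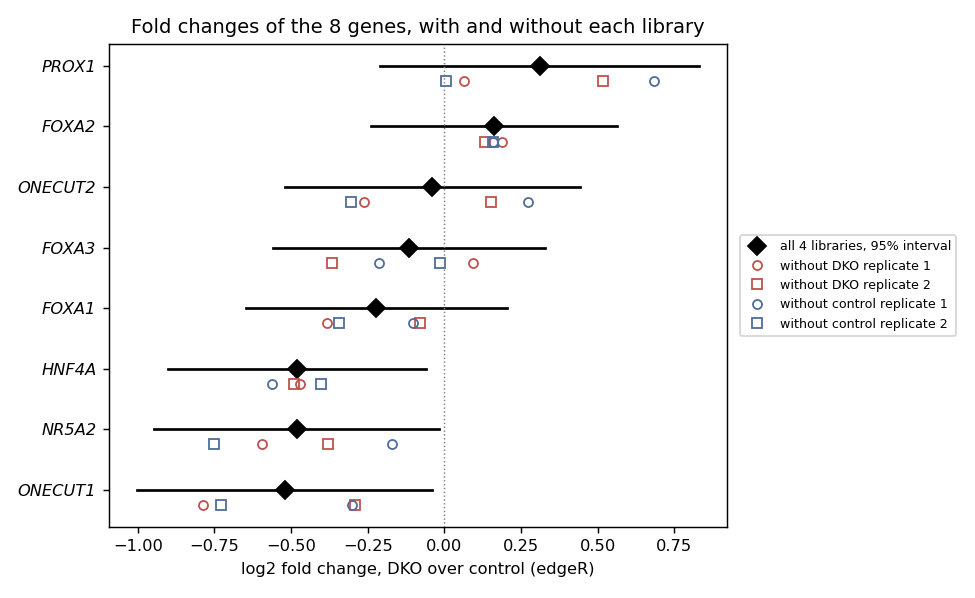
Log2 fold change, DKO over control, of each of the 8 genes: diamonds and lines give the edgeR value and 95% interval from all 4 libraries, and open symbols give the value without 1 library. HNF4A (-0.56 to -0.40) and FOXA2 (0.13 to 0.19) moved least between these fits, and PROX1 (0.0049 to 0.69) and NR5A2 (-0.75 to -0.17) moved widely.

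The libraries of 1 clone often differed as much as the clones. In 4 of the 8 genes the clones overlapped, and in the other 4 they did not (3 lower and 1 higher in DKO), where 49.9% of all tested genes did not overlap (26.2% lower and 23.7% higher). The difference between replicates exceeded that between clones for 4 of the 8 and for 45.0% of all genes. For 5 genes (PROX1, ONECUT1, ONECUT2, FOXA1 and NR5A2) replicate 2 had the lower CPM in both clones, with replicate 2 at 0.710 times replicate 1 for PROX1 in DKO and 0.600 times in control, and at 0.729 and 0.645 times for ONECUT2. FOXA3 was higher in replicate 2 in both clones, at 1.34 and 1.10 times. Over all tested genes 40.1% were lower in replicate 2 in both clones and 31.0% higher. The mitochondrial share of counts also differed by replicate number, as given above, and its part in these values was not tested. With mitochondrial genes left out the 8 values moved little and 0 of 8 passed, where 5.80% of genes did.

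Since the missing proteins bind AU-rich elements, the longest annotated 3′ UTR of each gene was searched for UAUUUAU, the core that the TTP family prefers. The heptamer was in 3 of the 8 genes, and in 36.1% of 11900 tested protein-coding genes with a 3′ UTR. ONECUT2 held 7 copies in 14574 bases, NR5A2 1 in 3214 and FOXA2 1 in 845, while HNF4A (4931 bases), PROX1 (5668), FOXA1 (1381), ONECUT1 (1091) and FOXA3 (739) held none. The sites are shown with 10 bases on each side, as RNA, with the heptamer in capitals, from GENCODE release 29 transcripts, and 3 of the 7 ONECUT2 sites stand for that gene.
FOXA2 (minus strand, chr20:22581249-22581275): cugcgugcuuUAUUUAUggcuuauaaa
NR5A2 (plus strand, chr1:200175898-200175924): uugaguagugUAUUUAUauuguauauc
ONECUT2 site 1 (plus strand, chr18:57482864-57482890): uuguuuucauUAUUUAUuguaacauug
ONECUT2 site 3 (plus strand, chr18:57483850-57483876): uauuguaacuUAUUUAUuuaacuuauu
ONECUT2 site 7 (plus strand, chr18:57487010-57487036): caauggacuuUAUUUAUgcaugggcgc
All 7 ONECUT2 sites lie between 6151 and 10297 bases after the stop codon, so a shorter 3′ UTR would lack them, and gene counts do not show which end was used. The gene with the most copies, ONECUT2, had the log2 fold change closest to 0 (-0.04), FOXA2 was at 0.16 and NR5A2 at -0.48. Among all 4294 tested genes with 1 or more copies 90 rose and 119 fell, with a median log2 fold change of 0.04. Among the 194 of them with 5 or more copies 5 rose and 5 fell, with a median of 0.07. Of 7606 genes with none 182 rose and 282 fell, with a median of -0.03. Over all tested genes 2.24% rose and 3.14% fell.

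**Figure D4:**
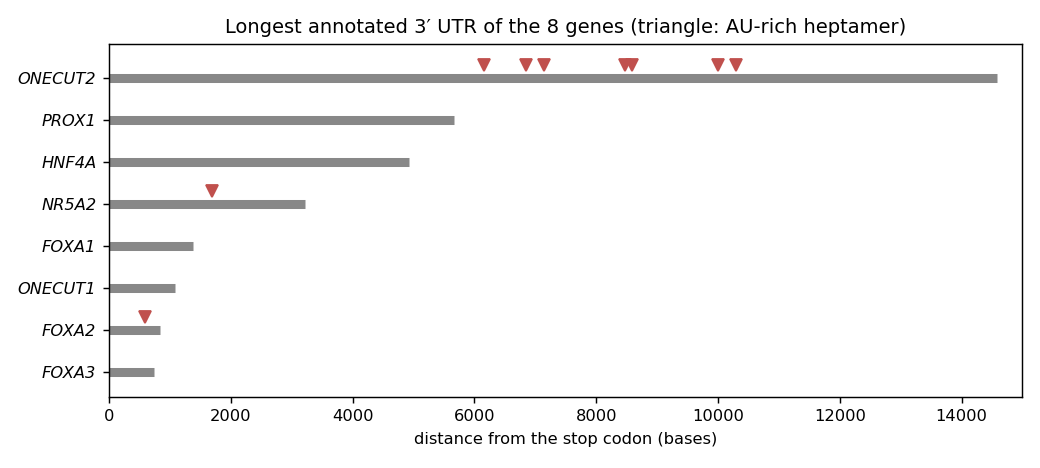
Length in bases of the longest annotated 3′ UTR of each of the 8 genes, from the stop codon, with a triangle at each UAUUUAU. ONECUT2 has 7 such sites, the first 6151 bases after the stop codon, NR5A2 and FOXA2 have 1 each, and the other 5 genes have none.

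Other transcription factors of the liver mostly did not pass either. Of 32 tested from a list of 35, 1 rose, 2 fell and 29 did not pass, with a median log2 fold change of 0.02. ZHX2, a repressor known from mice to silence Afp after birth, fell to 44.4 and 34.3 CPM in DKO, against 73.9 and 71.9 CPM in control (log2 fold change -0.88, edgeR adjusted p = 0.0184). Its 50 neighbours on chromosome 8 had a median of -0.38. GATA6, an endoderm factor, fell to 36.2 and 37.9 CPM in DKO, against 57.2 and 67.2 CPM in control (-0.74, edgeR adjusted p = 0.0432). NR3C1, the glucocorticoid receptor, rose to 127 and 127 CPM in DKO, against 86.7 and 70.8 CPM in control (0.70, edgeR adjusted p = 0.0456). All 3 lost their call without either DKO library, leaving 0 of 32 where the share called over all genes was also lower, at 1.83% with DKO replicate 1 left out and 1.77% with DKO replicate 2 left out. Their log2 fold changes in those fits were -1.06 and -0.73 for ZHX2, -0.69 and -0.79 for GATA6, and 0.72 and 0.69 for NR3C1. GATA6 (-0.59) and NR3C1 (0.59) lost it also without control replicate 2, where 0 rose and 2 fell, and 2 rose and 2 fell without control replicate 1. The share called over all genes was 5.46% without control replicate 2 and 16.4% without control replicate 1. With ERCC totals none of the 32 passed, beside 2.46% of all genes.

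CEBPA, NR1H4, NR0B2 and NR2F2 did not pass. CEBPA, the leucine zipper factor of adult liver, had 317 and 362 CPM in DKO and 356 and 418 CPM in control (log2 fold change -0.18, edgeR adjusted p = 0.678). The bile acid receptor NR1H4 was at -0.06 (0.076 without DKO replicate 2), and NR0B2, the small heterodimer partner that inhibits NR5A2 and HNF4A, at -0.16. NR2F2, a receptor that can compete with HNF4A for DNA, was at 0.19, at -0.081 without DKO replicate 1 and -0.44 with ERCC totals. Of 23 coregulators 0 rose and 1 fell, with a median of 0.02. The coactivator PPARGC1B fell to 8.86 and 5.84 CPM in DKO, against 17.9 and 16.7 CPM in control (-1.24, edgeR adjusted p = 0.0125), and lost its call without DKO replicate 2 (-0.97, edgeR adjusted p = 0.266), while its relative PPARGC1A, at no more than 2.06 CPM in the 4 libraries, was at -0.37.

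Among genes known as targets of the 8 factors, some passed in each direction and most did not pass. Of 25 tested HNF4A targets 1 rose, 2 fell and 22 did not pass (median -0.09), where 2.24% of all tested genes rose and 3.14% fell. DESeq2 called 3 of the 25 risen and 4 fallen, where it called 1.96% of all genes risen and 2.69% fallen. With limma-voom 2 rose and 2 fell, beside 2.30% and 2.95% of all genes. With mitochondrial genes left out 2 rose and 3 fell, beside 2.40% and 3.40% of all genes. TTR, the thyroxine carrier, rose to 143 and 156 CPM in DKO, against 96.9 and 78.3 CPM in control (0.78, edgeR adjusted p = 0.0297). The clotting factor gene F12 fell to 6.23 and 8.70 CPM in DKO, against 16.6 and 18.8 CPM in control (-1.22, edgeR adjusted p = 0.0131), in a stretch of chromosome 5 with a neighbour median of -0.30. Hepatic lipase, LIPC, fell to 47.1 and 51.3 CPM in DKO, against 85.0 and 96.4 CPM in control (-0.87, edgeR adjusted p = 0.0185). The list counted 3 risen and 3 fallen without control replicate 1. Leaving out control replicate 2 gave 0 and 4, DKO replicate 1 gave 0 and 0, and DKO replicate 2 gave 0 and 1. Over all genes these fits called 16.4%, 5.46%, 1.83% and 1.77%, in the same order. TTR kept its call only without control replicate 1 (0.91), and was 0.66, 0.86 and 0.70 in the other 3 fits. F12 (-1.0) and LIPC (-0.80) lost theirs without DKO replicate 1, as did LIPC without DKO replicate 2 (-0.96). The other 12 of 37 HNF4A targets had too few counts to test. Among them CYP7A1, CYP3A4, SLC10A1, F9 and NR1I3, genes of mature hepatocytes, had 0 counts in every library, where 3 counts would be 0.183 to 0.310 CPM.

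Of 12 tested NR5A2 targets 2 rose, 1 fell and 9 did not pass (median -0.08). Over all tested genes 2.24% rose and 3.14% fell, and these shares apply to the FOXA and ONECUT targets below as well. FGF19, the bile acid hormone, rose to 119 and 148 CPM in DKO, against 59.9 and 83.7 CPM in control (0.91, edgeR adjusted p = 0.0281). ABCG8, a subunit of the sterol exporter, rose (edgeR adjusted p = 0.0131) on 14 and 23 counts in DKO and 2 and 0 counts in control, a rate ratio of 15.4 with a 95% counting interval of 3.97 to 132, but DESeq2 did not call it (DESeq2 adjusted p = 0.0789). AFP, the fetal serum protein and a target of FOXA factors as well, fell to 3708 and 3385 CPM in DKO, against 7565 and 8081 CPM in control (-1.13, edgeR adjusted p = 0.0159). FGF19 (0.71, edgeR adjusted p = 0.351) and AFP (-1.09, edgeR adjusted p = 0.0939) lost their calls without DKO replicate 2, where 1 rose and 0 fell. Of 14 tested FOXA targets TTR and TAT rose, AFP fell and 11 did not pass (median -0.01). Leaving out control replicate 2 gave 1 risen and 2 fallen, DKO replicate 1 gave 0 and 1, and DKO replicate 2 gave 0 and 0. TAT, the tyrosine-degrading aminotransferase, had 7.20 and 6.15 CPM in DKO and 2.27 and 2.80 CPM in control (1.38, edgeR adjusted p = 0.0184), and lost its call without DKO replicate 1 (1.29) or 2 (1.48). Of 9 tested ONECUT targets TTR, TAT and SPP1 rose, 0 fell and 6 did not pass (median 0.16), with 2 risen without control replicate 2 and 1 without either DKO library. SPP1, which encodes osteopontin, had 52.7 and 62.6 CPM in DKO and 8.16 and 8.95 CPM in control (2.76, edgeR adjusted p = 4.99e-06). With ERCC totals 0 HNF4A targets rose and 1 fell, 1 NR5A2 target rose and 0 fell, 0 FOXA targets passed, and 1 ONECUT target rose. The list medians were then -0.84, -0.82, -0.75 and -0.52, in the same order, beside -0.68 for all genes. In that fit 0.165% of all tested genes rose and 2.30% fell. Of the 13 passing genes whose levels are given here, those of the lists and CDX2, an intestinal marker, 5 passed with ERCC totals (PPARGC1B, F12, ABCG8, SPP1 and CDX2), where NR3C1 was at 0.046, TTR at 0.12 and FGF19 at 0.15. The lists share genes, and 2 members, HNF4A and FOXA2, are themselves among the ONECUT targets.

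**Figure D5:**
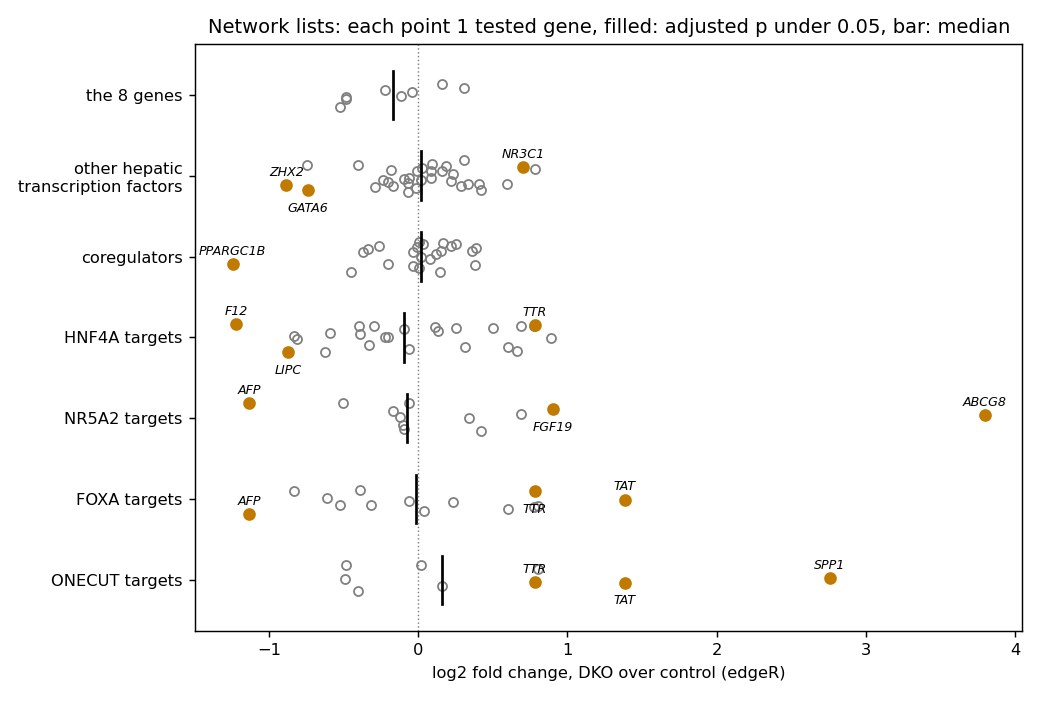
Log2 fold change, DKO over control, of each tested gene in the lists around the network: filled points passed at an edgeR adjusted p under 0.05 and are named, open points did not, and bars are list medians. The 8 genes have no filled point and a median of -0.17, and the other medians lie between -0.09 and 0.16; the fitted value of ABCG8 rests on 2 control counts.

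Among markers of other cell types, some of intestine, bile duct and endothelium passed. Those of fibroblasts, leukocytes, and pancreas and nerve did not. Over all tested genes 2.24% rose and 3.14% fell. The share called over all genes was higher without control replicate 1 and lower without either DKO library, as given above. Marker counts from those fits are to be read beside those shares. Of 10 intestinal markers 6 were tested and 4 fell (SI, CDH17, CDX2 and ISX), with a summed level of 427 and 453 CPM in DKO and 624 and 634 CPM in control, mostly VIL1, which did not pass, and FABP2 and MUC2 at 0 counts. Leaving out either DKO library left 3 fallen. CDX2, the intestinal homeodomain factor, had 11.4 and 13.6 CPM in DKO and 41.7 and 48.4 CPM in control (-1.84, edgeR adjusted p = 0.000238), and kept its call without any 1 library. Of 8 tested bile duct markers SPP1 rose and PROM1 fell, at a sum of 1196 and 1261 CPM in DKO and 1359 and 1497 CPM in control, with 3 fallen without control replicate 1 and 0 without either DKO library. Of 8 endothelial markers PECAM1 and LYVE1 were tested and rose (1 of them without control replicate 2 or either DKO library), while VWF, CDH5, KDR, STAB2 and TIE1 had 0 counts, and the list summed to 28.4 and 30.1 CPM in DKO and 8.05 and 6.64 CPM in control. None of 5 tested fibroblast markers passed (sums of 142 and 140 CPM in DKO and 95.5 and 143 CPM in control), and without control replicate 1, 1 rose and 1 fell. None of 2 tested leukocyte markers passed, at sums of 109 and 125 CPM in DKO and 77.5 and 75.6 CPM in control that were mostly LYZ, with CD3E and CSF1R at 0 counts. Pancreatic and neural markers summed to 7.30 and 6.69 CPM in DKO and 10.0 and 11.6 CPM in control, and none of 2 tested passed. The part of these markers in the values of the 8 genes was not tested.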

How the data were processed

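The authors deposited raw counts per gene for 4 libraries, in 1 table of 42261 rows, of which 92 were ERCC spike-ins. Per the labels' protocols, ERCC RNA was added to total RNA before ribosomal RNA depletion, and directional libraries were sequenced from 1 end. Alignment with STAR 2.5.3a to hg38, featureCounts (Subread 1.6.3) and DESeq2 are named by the submitters' processing notes. No source used here gives the annotation, the strand setting or the rule for multiple matches. Library sizes exclude the spike-ins. In R 4.3.3, edgeR 4.0.16 (filterByExpr, TMM, quasi-likelihood test, group as the only term) was fitted to 13359 genes and tested on simulated data; intervals are 95% and use the test's degrees of freedom. CPM used library totals, and TPM used union exon lengths of GENCODE release 29 (40718 genes matched by symbol). Alternatives used DESeq2 1.42.0 and limma 3.58.1. Counts carry no molecular identifiers, so intervals from counts cover counting error only. Libraries of a clone differed beyond sampling noise (chi-square per degree of freedom 27.1 in DKO and 33.6 in control). The members and lists were chosen with earlier results of these data known. Named genes are the members, nearby genes with at least 10 counts, up to 6 passing genes or the leading gene of each list, and CEBPA, NR0B2, NR1H4, CDX2, PPARGC1A and NR2F2 (1 further gene of the rule is not reported here); other cell type markers are named by whether they passed or had 0 counts. HNF4A-AS1 and LINC00538 (9 counts in DKO, 2 in control) were too low to test.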

Additional observations from a re-analysis of the deposited data

How the results depend on the processing

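With DESeq2 size factors, no filter, a 1 CPM filter, DESeq2, limma-voom or mitochondrial genes left out, the 8 values kept their direction, moved by at most 0.02 and gave 0 of 8 calls. Over all genes 718 passed (299 higher and 419 lower in DKO), 1194 without a filter and 329 with ERCC totals (22 higher and 307 lower), which moved the median gene to -0.68 and reversed FOXA2 (-0.52), PROX1 (-0.27), NR2F2 (-0.44) and TTC6 (-0.42). Without 1 library, 237 to 2193 genes and 0 to 2 of the 8 passed. The values then ran from -0.56 to -0.40 for HNF4A, -0.79 to -0.29 for ONECUT1, -0.75 to -0.17 for NR5A2, 0.0049 to 0.69 for PROX1, -0.30 to 0.27 for ONECUT2, -0.36 to 0.092 for FOXA3, -0.38 to -0.08 for FOXA1 and 0.13 to 0.19 for FOXA2, and were -0.21 to 0.076 for NR1H4, -0.081 to 0.41 for NR2F2 and -0.48 to 0.10 for PROX1-AS1. The cause was not tested. The labels state no pairing, and replicate differences correlated at 0.470 between clones over genes. With the replicate number as a block, 4021 genes passed (30.1%) and 4 of the 8: HNF4A (-0.48, edgeR adjusted p = 0.000899), ONECUT1 (-0.52, edgeR adjusted p = 0.000857), NR5A2 (-0.46, edgeR adjusted p = 0.00226) and PROX1 (0.33, edgeR adjusted p = 0.0285). The lists then counted 5 risen and 4 fallen other liver factors, 3 and 3 coregulators, 6 and 7 HNF4A targets, 5 and 2 NR5A2 targets, 4 and 4 FOXA targets and 3 and 3 ONECUT targets, and LINC00862 passed (edgeR adjusted p = 0.00686). Of the 13 passing genes outside the 8 whose levels are given, recomputed after seeing the data, 5 still passed with ERCC totals, 12 with DESeq2 or the 1 CPM filter (both without ABCG8), and 4 to 13 without 1 library. Depth limits genes near 3 counts, such as ABCG8 in control.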
